A study of Drosophila melanogaster with 12 samples.

Results

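Atx2 shRNA was used in larval brain and Atx2 dsRNA in cultured S2 cells of Drosophila melanogaster. Transcripts that differed from controls in both systems divided between the same and opposite directions. Of 830 well expressed genes called in both systems, 455 were opposed and 375 moved the same way. The split was similar among all 1142 genes called in both, whatever their level. Of these, 332 were higher in brain and lower in S2 cells, and 275 were the reverse. The genes described here are the 5676 of 17737 counted gene identifiers that averaged at least 10 CPM, the read count scaled to a common library total, in the control libraries of both systems, so that an effect could be read in each. For every one of them the brain effect was the log2 fold change of Atx2 shRNA brains over control brains, the S2 effect was the log2 fold change of Atx2 dsRNA cells over control cells, and the interaction was the brain effect minus the S2 effect. A positive interaction thus means that the brain effect lay above the S2 effect. Genes were then sorted by whether the effects agreed or opposed. The genes were thus chosen by their control CPM and by the same effects that are compared, and their sizes, errors and calls are given as a description without p-values, other than for Atx2, the targeted gene.

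The design had 4 groups of 3 poly(A) RNA libraries. Whole brains of 3rd instar larvae carried an Atx2 short hairpin RNA driven by elav gal4, a driver active in neurons, although the whole brain with its glia and progenitors was lysed. Control brains are labelled with no treatment, and no control hairpin or genotype is named. S2 cells, an embryonic line with properties of blood cells (hemocytes), were given dsRNA, a long double-stranded RNA matching Atx2, and control S2 cells are labelled with no treatment, so a control dsRNA is not named either. Presence of dsRNA and loss of Atx2 cannot be told apart in S2 cells. In brain, effects of the hairpin, driver or genotype cannot be told apart from loss of Atx2. A lower number of cells of a type in brain also cannot be told apart from less RNA per cell. Nothing in the labels says that the 3 libraries of a group came from separate animals or cultures, so errors measure the spread between libraries, which may be technical.

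Ataxin-2 is a cytoplasmic RNA-binding protein found from yeast to human. It binds the poly(A)-binding protein, takes part in RNA granules together with factors such as Me31B, and can both stabilise and repress its target mRNAs. In flies it is known for roles in circadian translation, microRNA-dependent memory and actin organisation.

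Libraries held 26442727 to 28086056 counts in shRNA brains, 29754856 to 31579528 in control brains, 14944637 to 20400465 in dsRNA S2 cells and 25994555 to 29020252 in control S2 cells. The brain label matched its markers: elav, a neuronal RNA-binding gene, had 327, 333 and 344 CPM in shRNA brains and 481, 574 and 599.9 CPM in control brains, against 32.8, 19.5 and 17.7 CPM in dsRNA S2 cells and 28.3, 30.6 and 32.2 CPM in control S2 cells. The brain effect of elav was -0.72 and passed, but other neuron genes went the other way. Syt1 was called higher in shRNA brains (0.43), and nSyb and brp had 0.27 and 0.18 without passing. Hml, a hemocyte gene that S2 cells express, had 1617, 876 and 1068 CPM in control S2 cells. In brain 2 libraries stood apart by gut or salivary gland RNA. Gut markers summed to 3062 CPM in shRNA brain 1 and to at most 5.84 CPM in the other brain libraries, and salivary gland markers summed to 2175 CPM in control brain 3 and to at most 68.4 CPM in the others. Muscle markers summed to 1952 CPM in shRNA brain 2 and to 368 to 993 CPM in the other brain libraries. Fat body markers summed to 4012 and 2050 CPM in shRNA brains 1 and 2 and to at most 859 CPM in the others. Counts of the classes, and of the lists described at most length, are also given without shRNA brain 1 and control brain 3. These counts keep shRNA brain 2, and the part of RNA of other tissues in the brain effects was not tested.

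Atx2 (FBgn0041188, 3R:15408423-15417277, plus strand, BDGP6) had lower levels after knockdown in both systems, with no overlap between libraries. It had 91.6, 97.7 and 104 CPM in shRNA brains, against 187, 195 and 196 CPM in control brains. In S2 cells it had 149, 55.2 and 166 CPM with dsRNA, against 242, 218 and 226 CPM in controls, and the dsRNA libraries were thus uneven, with library 2 the lowest. The log2 fold change was -0.98 ± 0.08 in brain (SE, 3 libraries a group; adjusted p = 0.00288, edgeR quasi-likelihood test with Benjamini-Hochberg adjustment) and -0.89 ± 0.35 in S2 cells (adjusted p = 0.0611), where it did not pass the threshold of 0.05. Over 22 alternative analyses the brain value passed in 22 and the S2 value in 7, with adjusted p of 0.0139 to 0.310 in S2 cells. The systems were fitted apart, so leaving out a brain library could not change the S2 value, nor an S2 library the brain value. Both tallies include such alternatives, which carry no information on the unchanged value. The interaction of Atx2 itself was -0.09 ± 0.41 (adjusted p = 0.895), so the depth of knockdown was not shown to differ between the systems, and its error is several times its size. Without dsRNA library 2 it was -0.43 and passed the threshold (adjusted p = 0.0211; 0.0211 to 1.00 over the alternatives).

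Effects were larger in S2 cells than in brain. The median absolute log2 fold change was 0.21 in brain and 0.41 in S2 cells, the effect was larger in S2 cells for 3999 of the 5676 genes (70.5%), and 119 genes differed at least 2-fold in brain, against 960 in S2 cells. In brain 1452 genes passed the adjusted p of 0.05, 512 higher and 940 lower with shRNA, where 23.0% of all 10438 genes tested passed, 11.4% higher and 11.5% lower. In S2 cells 3039 passed, 1182 higher and 1857 lower with dsRNA, where 55.0% of all 9058 genes tested passed, 28.4% higher and 26.6% lower. As shares of the 5676 genes, to set beside the list counts below, 9.0% were higher and 16.6% lower in brain, and 20.8% higher and 32.7% lower in S2 cells. For the interaction 2808 genes passed, 1568 positive and 1240 negative, where 41.1% of all 11176 genes tested passed, 19.4% positive and 21.7% negative. Knockdown and control libraries did not overlap for 2826 genes in brain and 3560 in S2 cells, where this held for 44.5% of all genes tested in brain and 63.8% in S2 cells, and for 1813 in both, where it held for 29.5%.

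The 2 effects did not run together across genes. Across the 5676 genes Pearson's r between brain and S2 effect was -0.13 and Spearman's rho was -0.09, as a description of genes that share the same 12 libraries, and 2678 genes (47.2%) had the same sign in both. Both effects passed for 830 genes, 14.6% of the 5676, where 13.5% of all genes tested in both systems passed in both. The 830 were 57.2% of the genes called in brain, and 53.5% of all 5676 genes were called in S2 cells. They were 27.3% of the genes called in S2 cells, and 25.6% of all 5676 were called in brain. These shares were thus near those of all 5676 genes. Of the 830, 375 (6.6% of the 5676) moved the same way and 455 (8.0%) moved in opposite directions. The classes held 58 genes higher in both (background 2.28%), 317 lower in both (4.05%), 250 higher in brain and lower in S2 cells (3.93%), and 205 lower in brain and higher in S2 cells (3.25%). Of the 512 genes higher in shRNA brains, 250 (48.8%) were lower in dsRNA S2 cells and 58 (11.3%) were higher. Of the 940 genes lower in shRNA brains, 317 (33.7%) were lower in dsRNA S2 cells as well and 205 (21.8%) were higher. Over all 5676 genes 32.7% were lower and 20.8% higher in dsRNA S2 cells, so the shares among genes lower in brain were near those of all genes. The interaction passed for all 455 opposed genes. They were sorted by opposite effects in the same libraries, so this is no further support. It also passed for 140 of the 375 that moved the same way, for 1714 called in S2 cells alone and for 327 called in brain alone.

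**Figure D1:**
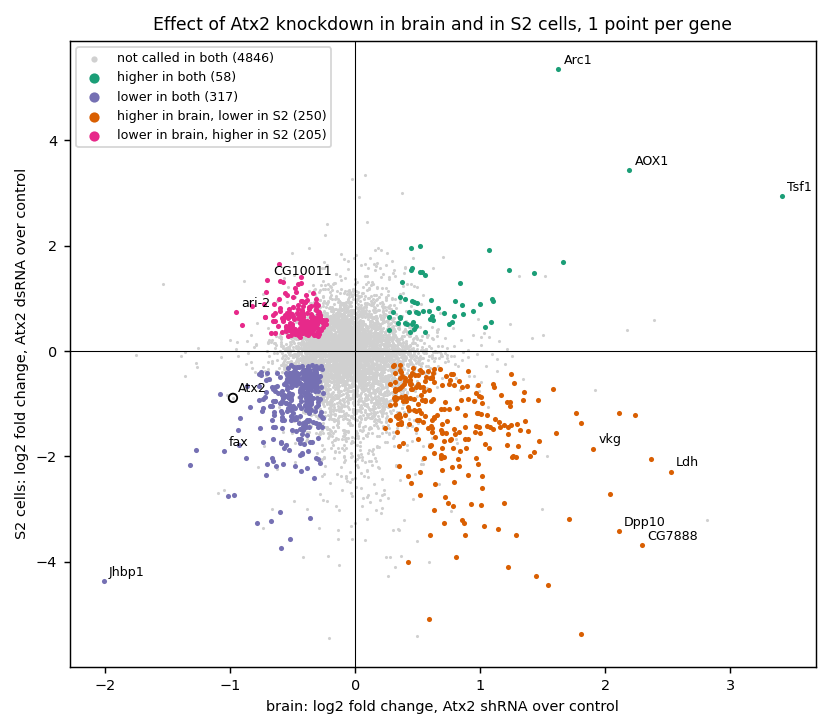
Brain effect (horizontal, log2 fold change of Atx2 shRNA over control) against S2 effect (vertical, log2 fold change of Atx2 dsRNA over control) for 5676 genes, with the 4 classes called in both systems in colour. The lower right quadrant, higher in brain and lower in S2 cells, holds 250 called genes and reaches the largest opposed effects, while the upper left quadrant holds 205 whose smaller effect is at most 0.83.

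Among the 5676 genes, opposed effects of at least 2-fold in each system were seen in 1 direction only. Genes called and at least 2-fold were 97 higher and 15 lower in brain, and 188 higher and 759 lower in S2 cells. With so few lower in brain, the absence of the reverse kind cannot be read as a preference for 1 direction. At least a 2-fold change in each system was met by 51 genes that were higher in shRNA brains and lower in dsRNA S2 cells, and by 0 of the 205 genes of the reverse kind, whose smaller effect reached at most 0.83. It was met by 7 genes higher in both and 5 lower in both. Among all 8452 genes tested in both systems the shares were 1.28% and 0.367% for the opposed kinds, 1.09% for higher in both and 0.237% for lower in both.

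The brain side of these classes changed when single libraries were left out, by amounts that differed between libraries. Fits with fewer libraries also make fewer calls possible to reach, and the part of this in the counts was not tested. Leaving out control brain 2 gave 11 genes higher in both, 46 lower in both, 58 higher in brain and lower in S2 cells and 29 of the reverse kind, and without shRNA brain 2 the counts were 21, 94, 91 and 62. Without control brain 1 they were 23, 129, 135 and 80, without shRNA brain 1 they were 35, 186, 160 and 94, and without control brain 3 they were 47, 183, 177 and 106. With shRNA brain 1 and control brain 3 both left out the counts were 39, 128, 151 and 66. Without control S2 library 3 they were 39, 267, 217 and 118. The scaling also moves the split of the interaction. Library totals alone moved the median S2 effect of the 5676 genes to 0.40, against -0.09 with the scaling used here, and gave 843 positive and 2637 negative interactions, and upper quartile scaling gave 1276 and 1697.

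Among 45 lists, genes of sugar breakdown had the largest share of opposed genes. Glycolysis splits glucose to pyruvate and lactate dehydrogenase turns pyruvate to lactate, a route that growing larval tissue uses heavily. Of 23 genes of glycolysis and its feeder steps, 18 were higher and 0 lower in shRNA brains, 17 were lower and 1 higher in dsRNA S2 cells, and 16 were called in opposite directions. The median effect of the 23 was 0.90 in brain and -1.17 in S2 cells, beside -0.06 and -0.09 over all 5676 genes. Their summed level was 11151, 10944 and 8059.5 CPM in shRNA brains, against 4551, 4496 and 6265 CPM in control brains. In S2 cells it was 5284, 3412 and 3073 CPM with dsRNA, against 11852, 7734 and 9853 CPM in controls. Knockdown and control sums did not overlap in either system.

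Ldh (lactate dehydrogenase, 3L:6259105-6262694, minus strand) had the largest interaction of the group. It had 398, 377 and 119 CPM in shRNA brains, against 26.8, 30.4 and 98.1 CPM in control brains. In S2 cells it had 499, 217 and 59.8 CPM with dsRNA, against 1785, 634 and 1372 CPM in controls. The groups did not overlap in either system, but the libraries of each group spread widely, shRNA brain 3 being close to control brain 3. Its effects were 2.52 ± 0.66 in brain and -2.29 ± 0.70 in S2 cells on the log2 scale (SE, 3 libraries a group, as for every effect written with ± here), and its interaction was 4.81 ± 1.10.

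Upstream and downstream steps shared the pattern. Pgm1, phosphoglucomutase, had 261, 247 and 169.6 CPM in shRNA brains and 71.2, 68.3 and 105 CPM in control brains. In dsRNA S2 cells it had 87.3, 73.4 and 78.7 CPM, and in control S2 cells 358, 173 and 256 CPM. No library of a knockdown group reached into its control group. Glys, glycogen synthase, and Glyp, glycogen phosphorylase, which build and break the glycogen store, rose in brain (0.74 and 1.29) and fell in S2 cells (-2.88 and -2.01). Pfk, the main control point of the pathway, had effects of 0.89 ± 0.11 in brain and -1.84 ± 0.44 in S2 cells, and PyK, pyruvate kinase at its end, 1.05 ± 0.19 and -1.22 ± 0.16. Treh, the enzyme that splits the blood sugar trehalose, had 0.90 ± 0.14 and -0.92 ± 0.25. Ald1, Tpi, Pgk, Pglym78, Eno, Hex-A, UGP, Gapdh1 and Gapdh2 were also called in opposite directions, the last pair being near copies whose reads may be shared.

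The 7 genes of the list not called in both directions had smaller or less even effects. Pgi was higher in brain (1.06 ± 0.21) and had -1.05 ± 0.41 in S2 cells without passing there, and the sugar transporter gene Tret1-1 was higher in brain (0.95 ± 0.26). Pdha, a subunit of pyruvate dehydrogenase, fell in S2 cells (-0.77 ± 0.11), while Pfrx, which makes the activator of Pfk, was the 1 gene of the list that rose there (0.66 ± 0.18). Gpdh1, Gpo1 and Pdhb passed in neither system. With a library left out the number of opposed genes ranged from 2 to 17: it was 2 without control brain 2, 7 without shRNA brain 2 and 8 without control brain 1, while 18 to 20 interactions of the list passed and were positive. Without shRNA brain 1 and control brain 3 it was 15.

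**Figure D2:**
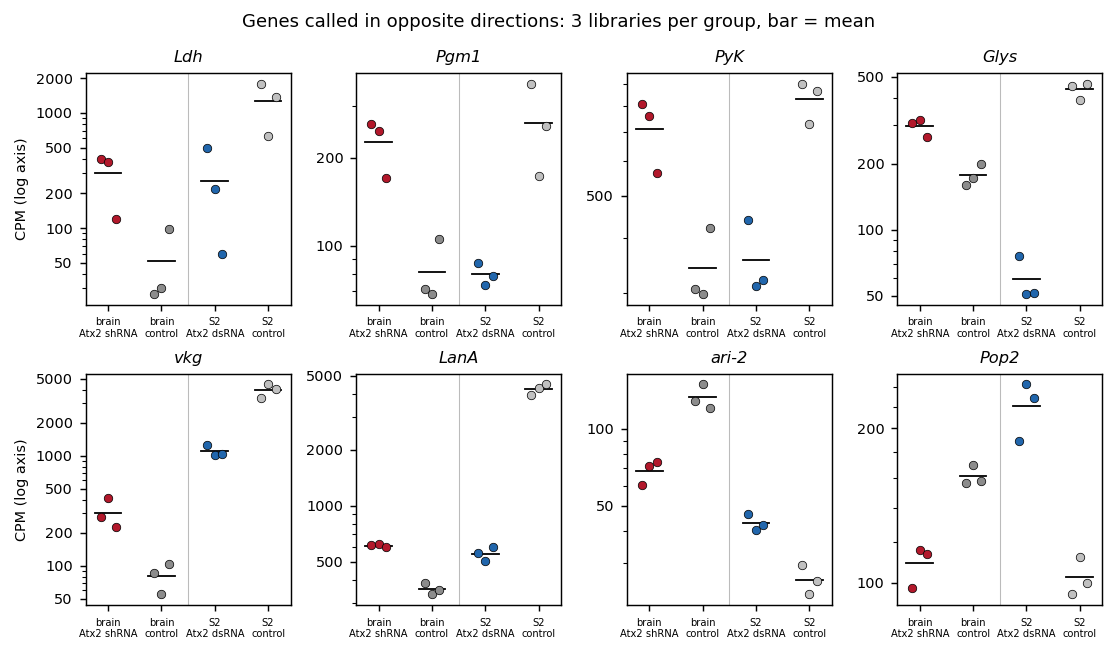
CPM (log axis) in each of 12 libraries for 6 genes higher in brain and lower in S2 cells after Atx2 knockdown and for ari-2 and Pop2, which did the reverse; bars are means of 3. In each panel the shRNA brains lie to one side of the control brains and the dsRNA S2 cells to the opposite side of the control S2 cells, without overlap.

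The factors that switch on glycolytic genes in low oxygen did not share the pattern. sima, the fly hypoxia-inducible factor, fell in both systems. It had 151, 147 and 163 CPM in shRNA brains and 255, 251 and 227 CPM in control brains, and 86.1, 45.9 and 39.7 CPM in dsRNA S2 cells and 271, 191 and 243 CPM in control S2 cells. Its partner tgo also fell in both (-0.64 and -0.96), and Hph, the prolyl hydroxylase that marks sima protein for decay, fell in S2 cells (-2.72 ± 0.25) and had -0.28 ± 0.11 in brain without passing.

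Genes next to glycolysis differed in degree. In the citric acid cycle 5 of 21 genes were higher and 0 lower in shRNA brains, and 14 were lower and 0 higher in dsRNA S2 cells, with median effects of 0.27 and -0.67 (interaction positive for all 21 genes, called for 16). Men, the malic enzyme, and Mdh1, a malate dehydrogenase, were called in opposite directions (0.83 and -2.18, 0.90 and -0.67). Of 31 genes of fatty acid and storage lipid metabolism, 3 rose and 3 fell in brain, against 3 that rose and 18 that fell in S2 cells. Desat1, a fatty acid desaturase, was opposed (0.68 and -1.97), and so was CDase, a ceramidase (0.81 and -3.91), while Lpin, a phosphatidate phosphatase, fell in both.

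Basement membrane genes were another opposed group. The basement membrane is the sheet of collagen IV, laminin and perlecan around organs, made in larvae mostly by hemocytes and fat body, and S2 cells secrete it too. Of 17 genes of this list 9 were higher and 0 lower in shRNA brains, 13 were lower and 1 higher in dsRNA S2 cells, and 8 were opposed. Median effects were 0.63 in brain and -1.86 in S2 cells. Summed levels were 4469, 4975 and 3636 CPM in shRNA brains and 2431, 2170.3 and 2411 CPM in control brains. In S2 cells they were 6691, 6281 and 6905 CPM with dsRNA and 20958, 23259 and 23306 CPM without.

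The 2 collagen IV genes moved as a pair. vkg and Col4a1 lie 1418 bases apart on chromosome 2L (2L:5012144-5028191, minus strand and 2L:5029609-5037279, plus strand). vkg had 278, 410.2 and 226 CPM in shRNA brains, against 86.01, 55.1 and 104 CPM in control brains, and 1248, 1011 and 1036 CPM in dsRNA S2 cells, against 3344, 4498 and 4087 CPM in control S2 cells. Col4a1 had 397, 561 and 349.7 CPM in shRNA brains, against 132, 83.9 and 157 CPM in control brains, and 1793, 1534 and 1568 CPM in dsRNA S2 cells, against 3677, 4667 and 4202 CPM in control S2 cells. Every library of each gene was on its group's side. Their interactions were 3.76 ± 0.36 for vkg and 3.17 ± 0.32 for Col4a1.

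The laminin subunits split in brain but not in S2 cells. LanA and LanB1 were opposed (0.78 ± 0.08 and -2.94 ± 0.11, 0.45 ± 0.08 and -2.50 ± 0.14), whereas LanB2 fell in S2 cells by a like amount (-2.88 ± 0.10) and had 0.12 ± 0.09 in brain without passing. LanA had 611, 621 and 596 CPM in shRNA brains and 381, 333 and 350.0 CPM in control brains, a narrow spread, and 554, 500.4 and 601 CPM in dsRNA S2 cells and 3922, 4295 and 4511 CPM in control S2 cells. SPARC, a collagen-binding protein, trol, the perlecan, Pxn, peroxidasin, and Tig, a matrix ligand of integrins, were opposed as well. Glt, glutactin, fell in S2 cells (-5.42 ± 0.16) and had 0.49 ± 0.26 in brain without passing. The receptor side did not share it: the integrin subunit mys had 0.00 ± 0.07 and 0.12 ± 0.16, and the linkers Ilk and parvin passed in neither system. Tsf1, the secreted iron carrier transferrin, was the exception in that it rose in both. With a library left out 4 to 10 genes were opposed, with 4 without control brain 2, 5 without shRNA brain 2, and 8 without shRNA brain 1 and control brain 3.

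Hemocyte markers moved with this group. Of 11 hemocyte identity genes, 4 of them also on the matrix list, 6 were higher in shRNA brains and 11 lower in dsRNA S2 cells, and 6 were opposed, among them Hml, the hemolectin (1.71 ± 0.44 and -3.19 ± 0.30), and Pvr, a growth factor receptor (0.84 ± 0.12 and -1.89 ± 0.21). The 6 opposed genes were 3 without control brain 2, control brain 3 or shRNA brain 2, 4 without control brain 1 or shRNA brain 1, and 4 without shRNA brain 1 and control brain 3. All 22 markers of the list, 11 of them under the minimum level in at least 1 system, summed to 2292 to 2898 CPM in shRNA brains and 902 to 1412 CPM in control brains, and to 4099 to 4885 CPM in dsRNA S2 cells and 12657 to 13893 CPM in control S2 cells. The defining plasmatocyte receptor eater had 11.1, 10.1 and 28.3 CPM in shRNA brains and 23.5, 11.2 and 12.02 CPM in control brains, which overlapped, and NimC1, another, had 4.57, 7.19 and 5.52 CPM in shRNA brains and 9.36, 11.2 and 5.32 CPM in control brains, which overlapped too. Other marker sums differed in brain as well. Muscle markers summed to 875 to 1952 CPM in shRNA brains and 368 to 781 CPM in control brains, and glia markers to 3264 to 4045 CPM in shRNA brains and 2439 to 2767 CPM in control brains. Fat body markers summed to 802 to 4012 CPM in shRNA brains and 399 to 859 CPM in control brains, which overlapped, and neuron markers to 6239.7 to 6978 CPM in shRNA brains and 5491 to 6652 CPM in control brains, which overlapped too. Neuroblast and progenitor markers summed to 3145 to 3863 CPM in shRNA brains and 5453 to 6159 CPM in control brains. The part of these cell types in the brain effects was not tested.

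**Figure D3:**
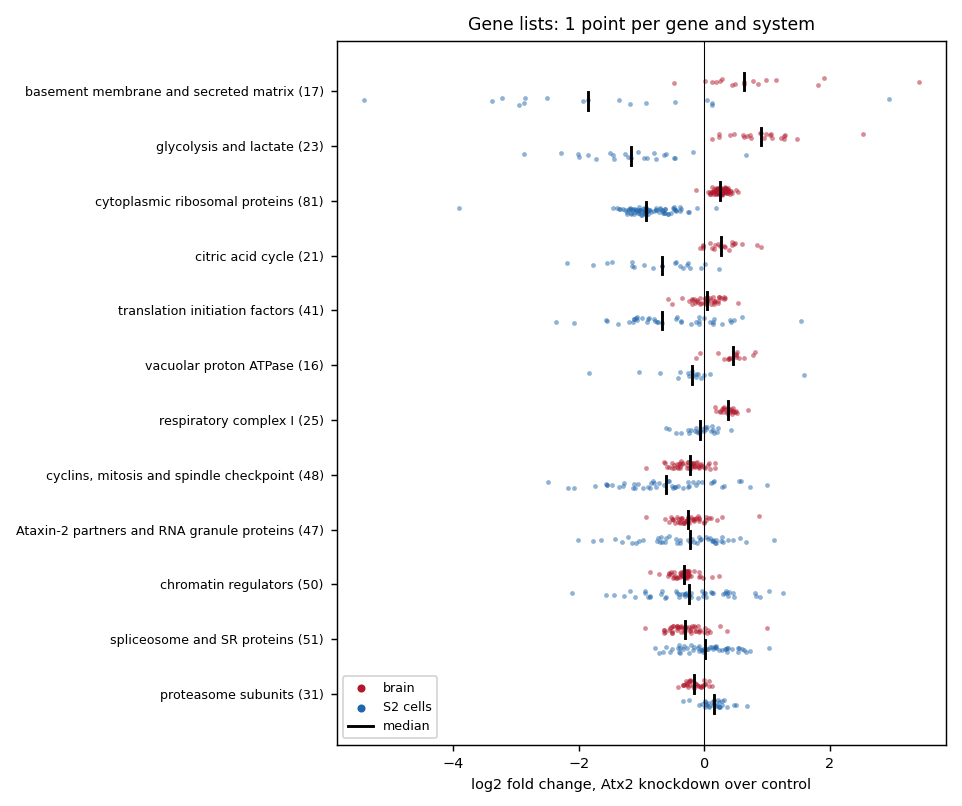
Log2 fold change of Atx2 knockdown over control in brain (red) and in S2 cells (blue) for the genes of 12 lists, 1 point per gene and system, with the median as a black bar; the number of genes is in parentheses. The red and blue medians lie on opposite sides of 0 for basement membrane (0.63 and -1.86), glycolysis (0.90 and -1.17) and ribosomal proteins (0.25 and -0.93), and on the same side for chromatin regulators and RNA granule proteins.

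Ribosomal protein genes fell almost as a whole in S2 cells, and a minority rose in brain. Of 81 cytoplasmic ribosomal protein genes 17 were higher and 0 lower in shRNA brains, and 78 were lower and 0 higher in dsRNA S2 cells. The median effects were 0.25 and -0.93, and the interaction was positive for 80 and passed for 79. With library totals alone as the scaling, 55 were lower and 2 higher in dsRNA S2 cells. The S2 median was then -0.44, and 63 interactions passed and were positive, so the size of the S2 fall rests in part on the scaling. Summed levels were 168698, 166714 and 157638 CPM in shRNA brains, against 154481, 135938 and 124112 CPM in control brains, and 135698, 140447 and 144070.0 CPM in dsRNA S2 cells, against 263855, 250148 and 268385 CPM in control S2 cells. RpS29, of the small subunit, stood apart in S2 cells (-3.91 ± 0.19). It had 175, 231 and 291 CPM with dsRNA, against 3530.2, 3316 and 3627 CPM in controls, and 2575, 2456 and 2528 CPM in shRNA brains, against 2299.5, 2098 and 1846 CPM in control brains. RpL3, of the large subunit, was opposed (0.37 ± 0.08 and -1.39 ± 0.12). The 16 opposed genes were 28 without control brain 1, 3 without control brain 3 or shRNA brain 1, 1 without shRNA brain 2 and 0 without control brain 2, and 1 without shRNA brain 1 and control brain 3, while 78 to 80 interactions passed with any 1 library left out. Translation factors resembled them in S2 cells alone: of 41 genes 2 rose and 3 fell in brain, against 4 that rose and 24 that fell in S2 cells, among them eIF3c, a subunit of initiation factor eIF3 (-0.07 ± 0.07 in brain, -2.37 ± 0.13 in S2 cells). With library totals alone 14 of the 41 rose and 18 fell in S2 cells.

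Genes of the respiratory chain, the mitochondrial ribosome and the vacuolar proton pump were called higher in brain and not lower. Of 25 complex I subunit genes 13 were higher and 0 lower in shRNA brains, with a median effect of 0.38, and 1 was higher and 4 lower in dsRNA S2 cells, with a median of -0.07. For complexes II to V the counts were 13 and 0 of 31 in brain and 0 and 6 in S2 cells. Of 67 mitochondrial ribosomal protein genes 12 were higher and 0 lower in shRNA brains, and 2 were higher and 13 lower in dsRNA S2 cells. Over all 5676 genes 32.7% were lower in S2 cells, a larger share than in this list. Cyt-c-p, cytochrome c, had the largest interaction of the respiratory chain genes (2.41 ± 0.24). Of 16 genes of the vacuolar proton pump 12 were higher and 0 lower in shRNA brains, and 1 was higher and 5 lower in dsRNA S2 cells. Vha100-2 was opposed (0.78 ± 0.20 and -1.83 ± 0.16), and Vha68-1 was the gene higher in S2 cells (1.58 ± 0.20). With library totals alone as the scaling, the complex I interaction median was -0.04, against 0.44, and 8 of its genes were higher in both systems, so the direction of this difference rests on the scaling. The 13 complex I genes higher in brain were 1 without control brain 2, 2 without shRNA brain 2, 3 without control brain 1, 6 without shRNA brain 1 and 7 without control brain 3, and the 12 proton pump genes were 2, 3, 3, 8 and 8. With a library left out the 13 genes of complexes II to V ranged from 0 without control brain 1 or control brain 2 to 18, and the 12 mitochondrial ribosomal genes from 1 without control brain 2 or shRNA brain 2 to 12. Without shRNA brain 1 and control brain 3 the genes higher in brain were 6 for complex I, 5 for complexes II to V, 7 for the mitochondrial ribosome and 7 for the pump.

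By the size of the smaller effect, the first 6 genes higher in brain and lower in S2 cells were CG7888, Ldh, Dpp10, Irc, NT5E-2 and vkg. CG7888 had 129.7, 83.3 and 69.4 CPM in shRNA brains and 10.96, 16.7 and 29.98 CPM in control brains, and 1.88, 1.19 and 1.48 CPM in dsRNA S2 cells and 22.1, 18.2 and 18.5 CPM in control S2 cells. Dpp10, named as a dipeptidyl peptidase, had effects of 2.11 ± 0.22 and -3.42 ± 0.33. Irc, an immune-regulated catalase, had 2.37 ± 0.43 and -2.04 ± 0.20, and NT5E-2, named as a nucleotidase, had 2.04 ± 0.33 and -2.71 ± 0.20. Brain libraries were uneven for Irc, which had 164, 97.97 and 47.3 CPM in shRNA brains and 16.02, 20.3 and 23.6 CPM in control brains. CG10433 had the largest interaction of all, 7.19 ± 0.50, with 67.6, 65.3 and 34.5 CPM in shRNA brains and 14.7, 15.9 and 17.2 CPM in control brains, and 2.79, 1.83 and 0.911 CPM in dsRNA S2 cells and 94.1, 60.03 and 81.9 CPM in control S2 cells. The identifier FBgn0040813 followed with 6.03 ± 1.86, but its brain libraries were scattered, 233, 628 and 80.1 CPM in shRNA brains and 5.06, 0.605 and 128 CPM in control brains, and its brain effect did not pass. hoe1 was next with 5.99 ± 0.51.

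Immune genes of the same kind were Tep2, a complement-like protein, dl, an NF-kappaB factor, spz, the ligand of the Toll receptor, and PGRP-LC, a peptidoglycan receptor, each higher in shRNA brains and lower in dsRNA S2 cells. dl was even across libraries, with 65.5, 69.3 and 67.9 CPM in shRNA brains, 39.01, 44.5 and 40.7 CPM in control brains, 48.2, 47.6 and 45.6 CPM in dsRNA S2 cells and 190.2, 190.2 and 189.7 CPM in control S2 cells. Of the 21 immune genes 5 rose and 2 fell in brain, and 5 rose and 11 fell in S2 cells. Vmat, the vesicular monoamine transporter of neurons, was opposed from a low S2 level, with 193, 171 and 163 CPM in shRNA brains and 64.2, 85.2 and 108 CPM in control brains, and 1.58, 1.36 and 0.911 CPM in dsRNA S2 cells and 9.48, 17.8 and 12.1 CPM in control S2 cells.

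The reverse class, lower in brain and higher in S2 cells, held regulators with modest effects. Its first 6 genes by the smaller effect were MESR6, ari-2, CG3408, CG10151, CG10011 and Mad1. ari-2, a RING-type ubiquitin ligase, had 60.1, 71.7 and 74.2 CPM in shRNA brains, against 128, 149.8 and 121 CPM in control brains. In S2 cells it had 46.4, 40.4 and 41.98 CPM with dsRNA, against 29.2, 22.5 and 25.4 CPM in controls. Neither pair of groups overlapped, and the effects were -0.95 ± 0.12 and 0.74 ± 0.13. Mad1, a spindle checkpoint protein, was tighter still (-0.66 ± 0.07 and 0.68 ± 0.10), and CG10011 had the largest negative interaction of the 6, -2.04 ± 0.23. Pop2, the CAF1-type deadenylase that shortens poly(A) tails, had 97.9, 116 and 114 CPM in shRNA brains and 156, 169.8 and 158 CPM in control brains, and 189, 244 and 228 CPM in dsRNA S2 cells and 94.98, 113 and 100.1 CPM in control S2 cells.

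About as many splicing genes fell as did not in brain, and they divided in S2 cells. Of 51 genes for spliceosome and SR proteins 2 were higher and 26 lower in shRNA brains, and 13 were higher and 11 lower in dsRNA S2 cells, with median effects of -0.31 and 0.02. Brr2, Cdc5, Prp19, Prp3, Prp6, Sf3b1 and U2af50 were lower in shRNA brains and higher in dsRNA S2 cells. Most of these are core spliceosome components, while U2af50 is a splice-site factor. Prp6, of the tri-snRNP, led the 7 with -0.49 and 1.03. The 6 genes lower in both were Hrb27C, Rsf1, U2af38, U4-U6-60K, tra2 and x16, of which several are SR proteins or splice-site factors. U2af50 and U2af38, which form 1 heterodimer at the 3′ splice site, thus fell together in brain (-0.43 and -0.52) and parted in S2 cells (0.53 and -0.51). With library totals alone 29 of the 51 were higher and 0 lower in S2 cells, so the second set rests on the scaling. The 7 opposed genes were 2 without control brain 2, 2 without shRNA brain 2, 3 without control brain 1, 4 without control brain 3 or shRNA brain 1, and 3 without shRNA brain 1 and control brain 3. The 6 lower in both were 3 without control brain 1, control brain 2 or shRNA brain 2, and 3 without shRNA brain 1 and control brain 3.

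Of 31 proteasome subunit genes 4 were lower and 0 higher in shRNA brains, and 4 were higher and 0 lower in dsRNA S2 cells, where 11.5% of all genes tested were lower in brain and 28.4% higher in S2 cells. Rpn2, a regulatory-particle subunit, was called in both (-0.41 ± 0.10 and 0.36 ± 0.10), and the interaction was below 0 for 28 of the 31, which includes 10 that passed. The 4 genes lower in brain were 1 without shRNA brain 1 and 0 without shRNA brain 2 or any 1 control brain, and 0 without shRNA brain 1 and control brain 3. The 4 higher in S2 cells were 12 without dsRNA library 1, 2 without control S2 library 3, and 29 with library totals alone. In the small RNA pathway pasha, a partner of Drosha, was lower in brain and higher in S2 cells (-0.41 and 0.53), while AGO1, the main microRNA effector, fell in both (-0.36 and -0.39).

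A set of genes for partners of Ataxin-2 and other RNA granule proteins fell in both systems. Of 47 genes 18 were lower and 1 higher in shRNA brains, 21 were lower and 5 higher in dsRNA S2 cells, and 11 were lower in both: AGO1, Cnot4, Fmr1, Hrb27C, Rga, Rox8, bel, brat, pum, rin and stau. Median effects were -0.26 and -0.22, beside -0.06 and -0.09 over all genes. brat, a translational repressor that stops neuroblast self-renewal, fell most of the 11. It had 518, 554 and 631 CPM in shRNA brains and 1067, 1085 and 1093 CPM in control brains, and 97.8, 64.96 and 57.8 CPM in dsRNA S2 cells and 224, 255 and 279 CPM in control S2 cells, with no overlap in either system. Fmr1, the fly fragile X protein, had -0.63 ± 0.09 and -0.67 ± 0.14, rin, the G3BP of stress granules, -0.52 ± 0.11 and -1.31 ± 0.16, and pum, a 3′ UTR-binding repressor that works with brat, -0.38 ± 0.09 and -1.09 ± 0.17. Imp, an mRNA-binding protein of young neuroblasts, was the 1 gene of the list that went up in brain and down in S2 cells (0.88 ± 0.21 and -1.21 ± 0.14). With library totals alone the S2 median turned to 0.27, 4 genes were lower in both and 6 were opposed, against 2 opposed with the scaling used here. Genes lower in both were 7 with upper quartile scaling, without control brain 2 there were 2, without shRNA brain 2 there were 4, and without control brains 1 and 3 in turn 6 and 7. Without shRNA brain 1 and control brain 3 there were 4.

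Some chromatin and cell cycle genes fell in both systems as well. Of 50 chromatin regulators 25 were lower and 0 higher in shRNA brains, 18 were lower and 9 higher in dsRNA S2 cells, and 13 were lower in both, among them the remodeller subunits brm, mor, osa and Bap111, the ATPase Iswi, the insulator protein Cp190 and the Polycomb gene ph-p (-0.87 and -0.67). Mi-2, another remodelling ATPase, went down in brain and up in S2 cells (-0.46 and 0.80). Of 48 cyclin, mitosis and checkpoint genes 15 were lower and 0 higher in shRNA brains, and 28 were lower and 3 higher in dsRNA S2 cells. The 7 lower in both included CycA, a mitotic cyclin, CycE, the cyclin of S phase entry, and E2f1, an activator of S phase genes. CycE had 50.3, 67.7 and 69.1 CPM in shRNA brains and 122, 111 and 121 CPM in control brains, and 24.4, 25.5 and 27.5 CPM in dsRNA S2 cells and 47.3, 74.3 and 65.996 CPM in control S2 cells. Mitotic genes such as polo and Cks30A fell in S2 cells (-2.07 ± 0.15 and -2.49 ± 0.13) and did not pass in brain (-0.27 ± 0.11 and -0.04 ± 0.12). The sum of neuroblast markers, given above, was lower in shRNA brains as well, and its part in these values was not tested. Without control brain 2 there were 3 chromatin genes and 1 cell cycle gene lower in both, without shRNA brain 2 there were 7 and 3, without control brain 1 also 7 and 3, without control brain 3 there were 8 and 2, and without shRNA brain 1 there were 11 and 3. With library totals alone they were 6 and 4, beside 6 chromatin and 5 cell cycle genes that were opposed, against 3 and 0 with the scaling used here. Without shRNA brain 1 and control brain 3 there were 6 and 3.

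Among the other genes lower in both, the first by the smaller effect with separate groups were Jhbp1, rost, fax, CG9416, Swip-1 and brat. Jhbp1, named for binding juvenile hormone, had 6.32, 6.71 and 1.99 CPM in shRNA brains and 18.6, 19.1 and 22.9 CPM in control brains, and 2.75, 1.54 and 1.71 CPM in dsRNA S2 cells and 35.4, 46.5 and 43.8 CPM in control S2 cells. Its S2 fall was the larger one (interaction 2.37 ± 0.53). fax, which takes part in axon formation with the Abl kinase, had 1207, 1506 and 1869 CPM in shRNA brains and 3289.7, 3316 and 2891 CPM in control brains, and 46.4, 33.3 and 53.8 CPM in dsRNA S2 cells and 182, 145 and 169.9 CPM in control S2 cells. rost, needed for myoblast fusion, had -1.28 ± 0.29 and -1.87 ± 0.17, and its control brain 3 was the lowest control at 54.2 CPM. Swip-1, an EF-hand protein, had -0.94 ± 0.12 and -1.50 ± 0.27. Hsp27 and Hsp23, neighbouring small heat shock genes, were called lower in both, but their S2 groups overlapped: Hsp23 had 132, 22.5 and 59.5 CPM in dsRNA S2 cells and 1098, 68.7 and 251 CPM in control S2 cells.

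Genes higher in both were few. Tsf1 (X:18387084-18390344, plus strand) had 996, 698 and 284 CPM in shRNA brains, against 48.2, 56.8 and 80.8 CPM in control brains. In S2 cells it had 365, 345 and 316 CPM with dsRNA, against 70.7, 34.7 and 28.7 CPM in controls. Its effects were of like size, 3.41 ± 0.48 and 2.94 ± 0.33, and no groups overlapped. The aldehyde oxidases AOX1 and AOX3, members of 1 gene family, rose in both (2.19 ± 0.41 and 3.44 ± 0.29, 1.43 ± 0.20 and 1.48 ± 0.40), as did CG15784 (1.66 ± 0.30 and 1.69 ± 0.28) and CG1648 (1.07 ± 0.14 and 1.91 ± 0.19).

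Arc1, which encodes a capsid-like protein that carries mRNA between cells, rose in both but far more in S2 cells. It had 175, 79.95 and 85.1 CPM in shRNA brains and 31.7, 33.3 and 45.1 CPM in control brains. In S2 cells it had 5597, 12493 and 21349 CPM with dsRNA and 311, 342 and 312 CPM in controls, and the dsRNA libraries alone differed among themselves by several fold. Its interaction of -3.73 ± 0.60 was the most negative of the 5676. pdgy, an acyl-CoA synthetase (-3.28 ± 0.48), CG2909 (-3.27 ± 0.20), Bin1, a corepressor subunit (-2.90 ± 0.20), and the ribosomal precursor copy pre-rRNA:CR45856 (-2.82 ± 0.68) followed. The first 3 rose in S2 cells and did not pass in brain. The last is 1 of many near-identical copies, so its count is uncertain.

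**Figure D4:**
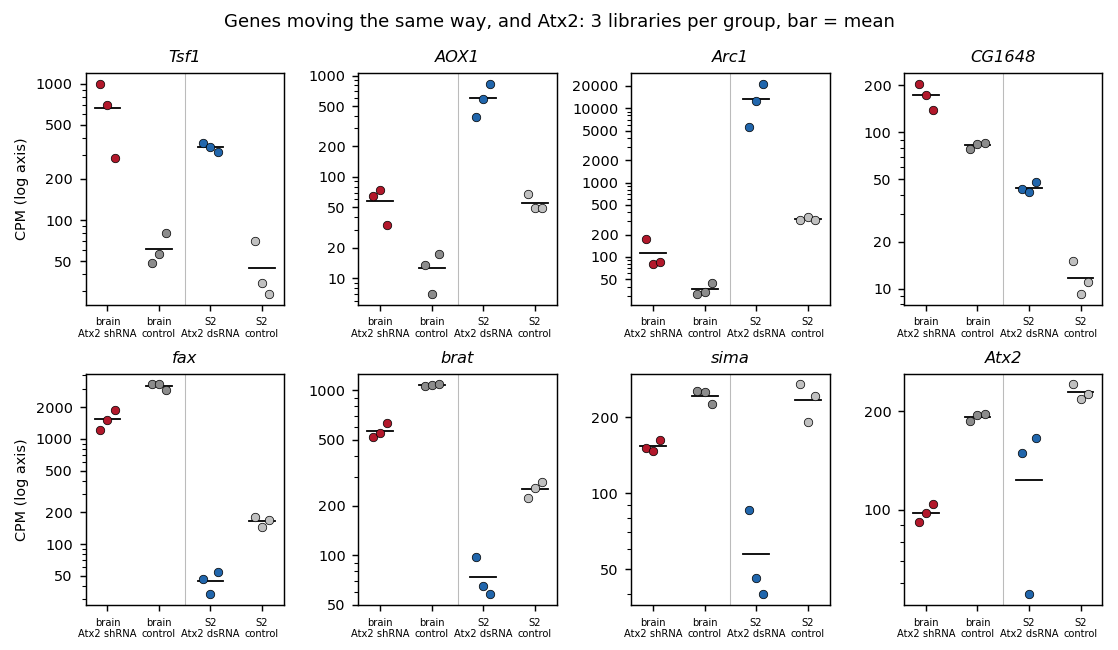
CPM (log axis) in each of 12 libraries for 4 genes higher and 3 genes lower in both systems after Atx2 knockdown, and for Atx2; bars are means of 3. Knockdown and control libraries are apart in both systems in every panel, and Arc1 in dsRNA S2 cells spreads most, between 5597 and 21349 CPM.

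Repair genes for broken DNA stood out among the 58 genes higher in both when their names were read, so the following list was drawn up after its values were seen. Of 18 repair and checkpoint genes 5 were higher and 1 lower in shRNA brains, 9 were higher and 2 lower in dsRNA S2 cells, and 5 were higher in both: Irbp and Ku80, which form the Ku dimer that binds broken ends, mre11 and nbs of the end-processing complex, and PolQ, a polymerase of end joining. Ku80 had 43.3, 35.3 and 38.2 CPM in shRNA brains, against 26.2, 25.3 and 29.98 CPM in control brains, and 146, 148 and 154 CPM in dsRNA S2 cells, against 41.7, 36.3 and 34.7 CPM in control S2 cells. Irbp had effects of 0.84 ± 0.22 and 1.30 ± 0.12, and mre11 0.60 ± 0.09 and 0.61 ± 0.10. DNAlig4, the ligase of end joining, rose in S2 cells (1.92 ± 0.12) and had 0.20 ± 0.20 in brain, and rad50, partner of mre11, passed in neither (0.37 and -0.26). p53, which can switch on Ku and mre11 genes after damage, rose in S2 cells (0.35 ± 0.10) and had 0.43 ± 0.14 in brain without passing. The stress factors Xrp1, Atf3 and Gadd45, picked after their values were seen, were also higher in both, Xrp1 with 753, 622 and 625 CPM in shRNA brains and 442, 445 and 486 CPM in control brains, and 1711, 1742 and 1840.2 CPM in dsRNA S2 cells and 1229.6, 892 and 1009 CPM in control S2 cells. In the list for JNK signalling, apoptosis and damage, 1 of 27 genes was higher and 6 lower in shRNA brains, and 7 were higher and 6 lower in dsRNA S2 cells, with 1 higher in both, 2 lower in both, and 2 lower in brain and higher in S2 cells. The 5 repair genes were 0 without control brain 2, 1 without control brain 1 or shRNA brain 1, 2 without shRNA brain 2, 3 without shRNA brain 3, and 3 without shRNA brain 1 and control brain 3.

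The series title names the cytoskeleton, whose lists were mixed. Of 51 actin regulators 2 were higher and 16 lower in shRNA brains, and 4 were higher and 23 lower in dsRNA S2 cells, with 7 lower in both: the small GTPases Rho1 and Cdc42, chic, the profilin, ena, an actin filament elongation factor, Cyfip, of the WAVE complex, cpa, a capping protein subunit, and alpha-Spec. Without control brain 2 they were 0, without shRNA brain 2 there was 1, without control brain 1 or control brain 3 there were 3, and without shRNA brain 1 and control brain 3 there were 3. chic had 1111, 1347 and 1385 CPM in shRNA brains and 2052, 2100.4 and 1854 CPM in control brains, and 535, 729 and 754 CPM in dsRNA S2 cells and 1062, 1185 and 1189 CPM in control S2 cells. Gel, gelsolin, which cuts filaments, was opposed (1.01 ± 0.19 and -2.61 ± 0.15), and so was cher, the filamin (0.75 and -0.62). Of 21 microtubule-associated genes 1 was higher and 5 lower in brain, and 2 were higher and 11 lower in S2 cells, with Jupiter, a microtubule-binding protein, lower in both (-1.08 and -0.81), and stai, the stathmin, lower in S2 cells alone (-0.38 ± 0.17 in brain without passing, -2.99 ± 0.18 in S2 cells). Of 25 kinesin genes 0 were higher and 2 lower in brain, and 6 were higher and 11 lower in S2 cells, and none was called in both. For 9 tubulin and tubulin cofactor genes the counts were 0 and 0 in brain and 2 and 3 in S2 cells.

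The classes differed in gene length, which the sorting did not use directly. Median exon length, summed over merged exons, was 3586 bases for the 314 genes lower in both that have a position and 2795 for the 201 lower in brain and higher in S2 cells. It was 2242 for the 249 higher in brain and lower in S2 cells and 2263 for the 57 higher in both, beside 2340 over 5618 genes. Among genes called in both systems, those lower in brain were thus longer, whichever way they went in S2 cells. The class lower in both also had higher median control levels, 192 CPM in brain and 154 CPM in S2 cells, against 66.0 and 72.5 CPM over all genes. Calls are easier at higher counts, and the part of level in the length difference was not tested. Across genes Spearman's rho between exon length and effect was -0.27 in brain and -0.11 in S2 cells, as a description of genes from the same libraries.

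They also differed by chromosome. Of the 201 genes lower in brain and higher in S2 cells 70 (34.8%) were on the X, against 27 of 249 (10.8%) higher in brain and lower in S2 cells, 35 of 314 (11.1%) lower in both and 14 of 57 (24.6%) higher in both, beside 17.6% of all. The X stood apart in S2 cells. Of its 989 genes 375 were higher and 207 lower in dsRNA S2 cells, with a median effect of 0.17, and medians on 2L, 2R, 3L and 3R were -0.17 to -0.10. In brain 72 X genes were higher and 190 lower, and medians on these 5 arms were -0.09 to -0.04. The median over X genes minus that over autosomal genes, each gene taken as log2 of a library over the mean of its controls with 1 CPM added, was 0.45, 0.25 and 0.20 in dsRNA S2 libraries and between -0.02 and 0.02 in control S2 libraries. In brain it was -0.02, -0.04 and -0.08 with shRNA and between -0.01 and 0.01 in controls. The S2 difference of the fitted effects was 0.30 to 0.31 over the scalings tried and 0.23 without dsRNA library 1. Of the RNAs that coat the male X in dosage compensation, named after values were seen, roX2 had 36.05, 56.1 and 54.5 CPM in dsRNA S2 cells and 105, 118 and 123 CPM in control S2 cells, an effect of -1.24 ± 0.18, and 47.8, 30.8 and 31.1 CPM in shRNA brains and 38.2, 37.04 and 31.5 CPM in control brains. roX1, the other such RNA, ran the opposite way from a low S2 level, with 1.88, 2.35 and 4.67 CPM in dsRNA S2 cells and 0.453, 0.472 and 1.10 CPM in control S2 cells, an effect of 2.12 ± 0.50, and had 1629, 1112 and 881 CPM in shRNA brains and 814, 925 and 1035 CPM in control brains. Among proteins of the same complex, mle, the helicase, had 0.46 ± 0.12 in S2 cells and msl-3 had 0.36 ± 0.12, and both passed. In the same cells mof had -0.31 ± 0.11, msl-1 had -0.01 ± 0.16 and msl-2, the limiting subunit, had -0.01 ± 0.11, without passing.

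**Figure D5:**
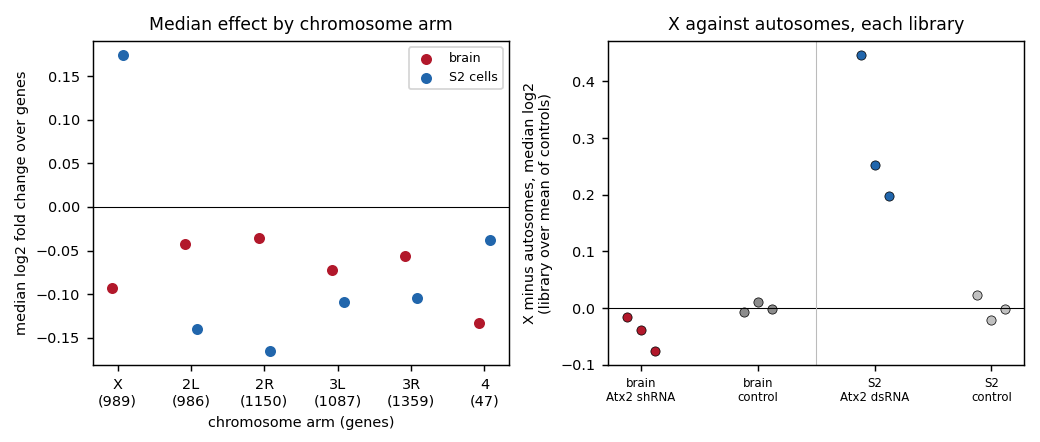
Left, median log2 fold change over genes of each chromosome arm in brain (red) and in S2 cells (blue), number of genes in parentheses. Right, median of X genes minus median of autosomal genes in each library, as log2 over the mean of the control libraries of its system; the 3 dsRNA S2 libraries lie at 0.20 to 0.45 and the other 9 between -0.08 and 0.02.

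Genes at the edge of the minimum level show what the rule left out. CG10151 and IntS12 were just inside, with a lower control mean of 10.0003 ± 1.53 CPM in S2 cells for CG10151 and 10.01 ± 0.627 CPM in brain for IntS12, and CG15084 and PIG-N were just outside, both through the brain, with 9.999 ± 1.01 and 9.99 ± 1.76 CPM (SD, 3 libraries). CG10151 was opposed and IntS12 passed in neither system. Beyond the rule, 1519 genes reached the minimum in control brains alone and 496 in control S2 cells alone. Their median interactions were -1.04 and 1.16, against 0.04 for the genes described here.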

How the data were processed

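Poly(A) RNA was sequenced from 12 libraries, 3 in each of 4 groups. The deposited files hold raw read counts per gene. Per the submitters' processing notes, which give no order, cutadapt 1.13, STAR, HTSeq 0.6.1p1, DESeq2 and the BDGP6 genome were used. The strand setting of the counting is not given in the sources used here; overlapping genes on opposite strands may share reads. Of 17737 identifiers 17599 matched the BDGP6 annotation given with the data.

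In R 4.3.3, edgeR 4.0.16 fitted quasi-likelihood models to the counts: 1 per system for the brain and S2 effects and 1 over all 12 libraries for the interaction. Genes passed filterByExpr (minimum count 10), TMM factors were computed within each system, and p-values were adjusted over all genes tested by the Benjamini-Hochberg method, with a threshold of 0.05. CPM are counts scaled to library total times TMM factor. TMM factors were 1.175 to 1.2 in dsRNA S2 cells and 0.8363 to 0.8595 in control S2 cells, and 0.9839 to 1.019 in brains. No 2 libraries of a group agreed within sampling noise (chi-square per degree of freedom 22.1 to 154). The models were tested on simulated data. Alternatives were other scalings, filters and tools (DESeq2 1.42.0, limma 3.58.1), a replicate block, control minimums of 5 and 20 CPM, and libraries left out.

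The genes and 45 lists (1475 genes matched, 18 entries unmatched) were chosen with earlier results of these data known. The repair list and the X chromosome were taken up after values were seen. Genes were named by rule: Atx2, the 6 with the largest smaller effect per class with libraries apart, the 5 largest interactions of each sign, up to 3 per list by interaction, and 2 on each side of the minimum. Other genes named were picked after their values were seen.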

Additional observations from a re-analysis of the deposited data

Results flagged for a closer look

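The difference between the brain and the S2 effect passed the test of the interaction in 2808 of the 5676 genes well expressed in both systems (edgeR, adjusted p under the threshold). The named genes of the 4 classes for which it passed are given here. These genes, and the largest interactions below, were chosen by their values in the same libraries, so a pass is no further support. Of the genes higher in both, the interaction log2 was -3.73 for Arc1 and -0.85 for CG1648, so that the rise was larger in S2 cells. Of the genes lower in both it was 2.37 for Jhbp1, 1.74 for CG9416, 0.85 for fax and 0.85 for brat, so that the fall was larger in S2 cells.

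Genes higher in brain and lower in S2 cells had the interaction log2 5.98 for CG7888, 5.53 for Dpp10, 4.81 for Ldh, 4.76 for NT5E-2, 4.41 for Irc and 3.76 for vkg. Those lower in brain and higher in S2 cells had -2.04 for CG10011, -1.84 for CG10151, -1.69 for ari-2, -1.69 for MESR6, -1.62 for CG3408 and -1.34 for Mad1. The largest interactions of the whole set were 7.19 for CG10433, 6.03 for FBgn0040813, 5.99 for hoe1 and 5.91 for Glt on the positive side, and -3.28 for pdgy, -3.27 for CG2909, -2.90 for Bin1 and -2.82 for pre-rRNA:CR45856 on the negative side, besides CG7888 and Arc1 already given. Groups of 3 libraries are too small for a test of single libraries that stand apart.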

How the results depend on the processing

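Many genes were named for large interactions or effects, so that little movement of their interactions is no sign of stability: of 3278 values recomputed for 149 named genes other than Atx2, 36 no longer passed, 7 newly passed and 0 that passed changed sign. Counts of genes higher in both, 58 here, were 101 with upper quartile scaling, 163 with library totals alone, 36 with no filter, 88 with a stricter filter, 92 with DESeq2 and 38 with a control minimum of 20 CPM. Genes lower in both, 317 here, were 199 with upper quartile scaling and 138 with library totals alone. Genes lower in brain and higher in S2 cells, 205 here, were 421 with library totals alone and 111 with no filter. Without shRNA brain 1 and control brain 3, genes lower in both were 128, genes higher in brain and lower in S2 cells 151 and the reverse kind 66. With a 2-fold change required in each system, higher in both were 7, lower in both 5, higher in brain and lower in S2 cells 51 and the reverse 0. With 1 library left out, interaction calls over all genes ran from 3906 to 4713 and among well expressed genes from 2425 to 2989, genes higher in both from 11 to 78, lower in both from 46 to 360, higher in brain and lower in S2 cells from 58 to 275, the reverse from 29 to 201, and the Atx2 interaction from -0.43 to 0.20. The cause of these shifts was not tested.

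Replicate numbers were not taken as pairs. The correlation of deviations of same-numbered knockdown and control libraries was 0.032, 0.225 and -0.442 in brain and 0.444, 0.377 and 0.031 in S2 cells, and not every library correlated best with its own number. With the replicate block, interaction calls over all genes were 4238 and interaction calls among genes well expressed in both systems were 2702, but brain calls fell to 7 higher and 7 lower, which left 1 gene higher in both, 2 lower in both, 4 higher in brain and lower in S2 cells and 0 of the reverse kind. Depth was lowest in dsRNA S2 libraries, so low genes are least certain there.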

Other observations

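Further lists had these counts. Of 16 Notch pathway genes 6 were lower and 0 higher in shRNA brains, and 7 were lower and 2 higher in dsRNA S2 cells, with Nct, kuz, mam and neur lower in both. The 6 lower in brain and the 4 lower in both were 0 and 0 without control brain 2 or shRNA brain 2, 2 and 1 without control brain 1, 4 and 3 without control brain 3 or shRNA brain 1, and 1 and 1 without shRNA brain 1 and control brain 3. Of 11 ecdysone response genes 2 were higher and 2 lower in brain, and 4 higher and 1 lower in S2 cells, with ftz-f1, a nuclear receptor, and MsrA, a methionine sulfoxide reductase, higher in both. Of 40 genes for ribosome biogenesis 1 was higher and 4 lower in brain, and 13 were higher and 6 lower in S2 cells. Of 43 genes for autophagy and the lysosome 4 were higher and 3 lower in brain, and 9 were higher and 15 lower in S2 cells. With library totals alone as the scaling the genes higher in S2 cells were 7, 8, 28 and 21 in these 4 lists. Over all 5676 genes, with the scaling used here, 9.0% were higher and 16.6% lower in brain, and 20.8% higher and 32.7% lower in S2 cells. The autophagy and lysosome counts in S2 cells were near these shares.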
